A study of Mus musculus with 12 samples.

Results

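The 10 genes described here, of 20614 in the expression table, are the immediate early genes Fos, Fosb, Jun, Junb, Egr1, Ier2 and Atf3 and the Krüppel-like factors Klf2, Klf4 and Klf6. They were chosen by gene name, with earlier results of these data known. Each name matched 1 row of the table. In astrocytes isolated from Cd38-/- mice, the mean level of Junb was 46.0% and that of Klf6 53.0% of the Cd38+/+ mean. Both passed the test as lower there, as did 1.86% of all genes tested. The call of Junb was lost without any one of Cd38-/- replicates 1, 2, 5 and 6. In Cd38+/- mice the levels were alike, at 45.9% and 53.1%, but no gene passed the test in that comparison. No other member passed the test in any genotype comparison.

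Immediate early genes are transcribed within minutes of a stimulus, without the need for new protein synthesis, through factors already present in the cell such as SRF with its ternary complex factors and CREB. Fos, Fosb, Jun and Junb encode subunits of the dimeric transcription factor AP-1, Egr1 a zinc finger factor, Atf3 a stress-responsive factor of the ATF/CREB family and Ier2 a small nuclear protein. Klf2, Klf4 and Klf6 encode zinc finger factors that bind GC-rich DNA and are themselves induced early. Growth factors, calcium signals, injury and the enzymatic dissociation of tissue are all known to induce these genes in brain cells.

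Male mice of 12 to 14 months were used, bred on the C57BL/6J strain. The Cd38+/+ mice were wild type (3 libraries), the Cd38+/- mice carried 1 copy of the Cd38tm1Lnd allele (3 libraries) and the Cd38-/- mice carried 2 copies (6 libraries). The disruption, in exons 2 and 3, is global, so the astrocytes were not the only cells lacking CD38, an ectoenzyme that consumes NAD. Tissue labelled as midbrain (striatum, thalamus and substantia nigra together) was dissected in a buffer with the glutamate receptor blockers CNQX and D-AP5, dissociated with papain, depleted of endothelial cells, myelin and CD11b-positive cells with beads, and enriched for astrocytes with ACSA-2 beads. No library of undissociated tissue was analysed here, so the part of the isolation itself in the level of these genes was not tested. No source used here says which libraries were dissociated or sequenced together.

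Expression is given in TPM, the share of a gene among the transcripts of a library, a scale on which genes can be compared because it is per length of transcript. Differences are given as the change in log2(TPM + 1), with the standard error (SE), from limma across all genes. A gene was called when its q value was under 0.05 and its change at least 1.2-fold. Genes averaging 5 TPM or less in both genotypes were left out of a comparison.

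The targeted gene followed the labels. Cd38 was at 149, 120.0 and 105 TPM in the Cd38+/+ libraries, at 90.8, 90.7 and 90.4 TPM in the Cd38+/- libraries and between 8.54 and 21.9 TPM (median 15.7) in the Cd38-/- libraries. The 3 Cd38+/+ libraries stood apart from the rest in one respect: 13160 to 13516 genes had a value above 0 in them, against 16160 to 16327 in the Cd38+/- and 15920 to 17906 in the Cd38-/- libraries. They serve as the control of both wild-type comparisons, and the part of this gap in the results below was not tested. Astrocyte markers were abundant in all libraries, with 14450 to 23742 TPM over 15 genes (Aldoc, Slc1a3 and Gja1 were highest), and in Cd38-/- replicate 3 oligodendrocyte markers, led by Mbp, Mobp and Cnp, exceeded them (17849 against 15882 TPM). Endothelial markers were present in all 12, with 1288 to 4749 TPM over 18 genes (Slc2a1, Ly6c1 and Itm2a highest). Of the microglial markers, C1qb averaged 11.3 and Ctss 9.35 TPM over the 12 libraries, and Cx3cr1, Tmem119, Fcrls and Siglech were listed at 0 in each Cd38+/+ library.

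Gene positions are given on GRCm38 (GENCODE vM21). Junb (84974484 to 84978718), Ier2 (84661331 to 84662852) and Klf2 (72319033 to 72321656) are on chromosome 8, and Jun (95049034 to 95052222) and Klf4 (55527143 to 55532466) are on chromosome 4. The others are Atf3 on chromosome 1 (191170296 to 191218039), Fosb on chromosome 7 (19302696 to 19310051), Fos on chromosome 12 (85473890 to 85477273), Klf6 on chromosome 13 (5861482 to 5870394) and Egr1. Junb overlaps Prdx2 on the opposite strand, and the library kit is not stated to keep strand, so reads from the shared part cannot be told apart. Prdx2 (named here for this overlap, after its values were seen) differed by 0.0034 on the log2 scale between Cd38-/- and Cd38+/+ (SE 0.12, q = 0.56).

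Promoter sequence is shown for Junb and Klf6, the pair of genes that passed the test, and for Jun and Fos, AP-1 partners of Junb that did not. Each stretch holds 120 bases, from 130 to 11 bases before the transcription start of the RefSeq gene (GRCm38.p6), written 5′ to 3′ along the gene. Capitals mark a GC box (GGGCGG, or CCGCCC on the other strand) or a TATA box (TATAAA).
Junb promoter, chr8:84978759-84978878, minus strand: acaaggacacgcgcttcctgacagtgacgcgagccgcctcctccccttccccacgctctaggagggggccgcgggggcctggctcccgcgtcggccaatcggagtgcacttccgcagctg
Klf6 promoter, chr13:5861359-5861478, plus strand: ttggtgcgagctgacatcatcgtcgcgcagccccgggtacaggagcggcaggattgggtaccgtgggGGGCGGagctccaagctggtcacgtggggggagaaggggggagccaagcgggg
Jun promoter, chr4:95052233-95052352, minus strand: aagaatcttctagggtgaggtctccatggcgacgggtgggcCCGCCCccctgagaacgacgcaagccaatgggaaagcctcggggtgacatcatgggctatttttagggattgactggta
Fos promoter, chr12:85473760-85473879, plus strand: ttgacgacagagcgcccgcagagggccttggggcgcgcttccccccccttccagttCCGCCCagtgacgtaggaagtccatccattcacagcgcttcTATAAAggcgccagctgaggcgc
The GC box, the core bound by Sp and Klf proteins, is present in the Klf6, Jun and Fos stretches and not in that of Junb. Over the whole RefSeq promoter window (250 bases before to 50 after the start, both strands searched), 8 members had an entry. Egr1 and Ier2 had none. GGGCGG was found in 7 of the 8 (all but Junb), against 35.7% of 32851 windows of the same length. The EGR site GCGGGGGCG was found in Fosb, Klf2 and Klf4 (2.91% of all windows), where it overlaps a GC box in each, and TATAAA in Fos and Junb (13.6% of all windows). The CArG box bound by SRF, the cAMP response element TGACGTCA and the AP-1 site TGANTCA were in none of the 8 windows, against 1.63%, 1.79% and 7.81% of all windows. Only these spellings were searched, so variant sites and sites outside the window were not counted. These matches describe letters only.

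**Figure D1:**
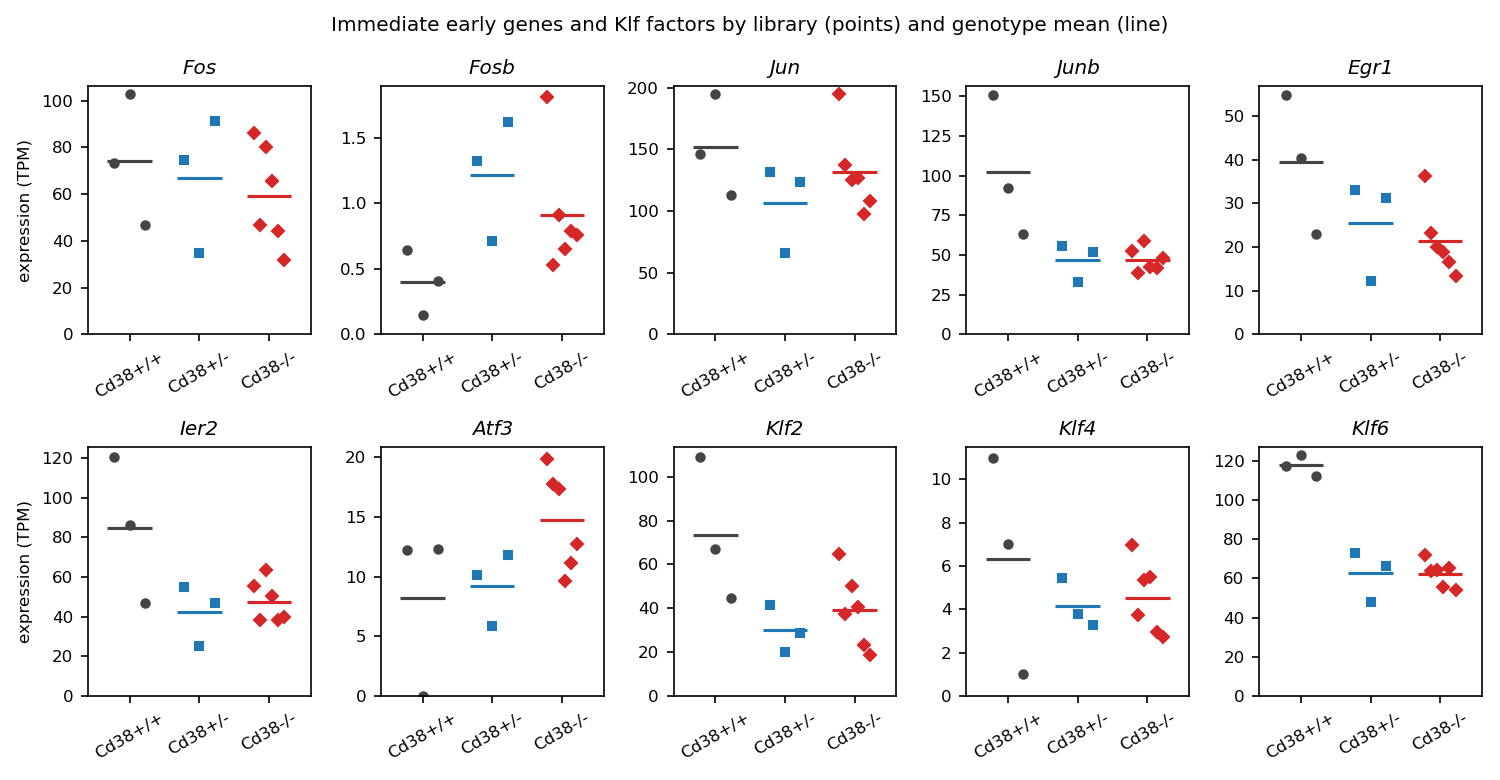
Expression in TPM (linear axis from 0, scaled per gene) of the 10 members in each library (points) by genotype, with the genotype mean (line). The 3 Cd38+/+ points of Junb and Klf6 lie above every other point, while those of Fos and Jun overlap with the points of the other genotypes.

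In Cd38+/+ astrocytes the highest mean was that of Jun (151 TPM ± 41.0, SD, n = 3), followed by Klf6 (118 ± 5.28), Junb (102 ± 44.6), Ier2 (84.5 ± 36.9), Fos (74.3 ± 28), Klf2 (73.6 ± 32.5), Egr1 (39.3 ± 15.9), Atf3 (8.17 ± 7.07), Klf4 (6.33 ± 5.01) and Fosb (0.400 ± 0.245). Neighbours in this order overlapped in their libraries except at the steps from Egr1 to Atf3 and from Klf4 to Fosb. In Cd38-/- astrocytes Jun was again first (132 TPM ± 34.0, n = 6) and its libraries lay above all of those of Klf6 (62.5 ± 6.63), which did not hold in Cd38+/+. Fos (59.2 ± 21.6) stood between Klf6 and Ier2 (47.6 ± 10.6) there, and Junb (46.9 ± 7.53) was in the fifth place. The plot of TPM by library shows these levels.

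Junb, an AP-1 subunit that often opposes Jun in proliferation, was at 151, 92.3 and 63.1 TPM in the Cd38+/+ libraries. It was at 56.0, 32.9 and 51.6 TPM in the Cd38+/- libraries and at 38.9 to 58.7 TPM (median 45.1) in the 6 Cd38-/- libraries. The lowest Cd38+/+ library lay above the highest of both other genotypes. The Cd38+/+ libraries themselves spanned 2.39-fold, wider than the 1.51-fold span of the Cd38-/- libraries. Junb fell in Cd38-/- by 1.03 on the log2 scale (SE 0.24, 95% confidence interval -1.55 to -0.51, limma, q = 0.0249). Of all 11722 genes tested, 1.86% were called lower in this comparison and 3.62% had libraries that lay below all Cd38+/+ libraries. In Cd38+/- the difference was -1.05 (SE 0.34, interval -1.82 to -0.29) with q = 0.191, so Junb did not pass there, although its libraries did not overlap, as was the case for 6.94% of all 11763 genes. Cd38-/- and Cd38+/- differed by 0.02 (SE 0.18, interval -0.37 to 0.42, q = 0.704). The Cd38-/- call was lost without any one of Cd38-/- replicates 1, 2, 5 and 6 (q = 0.0564, 0.0678, 0.063 and 0.0557), and the difference was -0.7 with q = 0.0699 once the trend with transcript length and GC content was removed. At 1809 bases and 62.6% GC, Junb is shorter and richer in GC than the median gene (3014 bases, 48.9% GC).

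Jun, the AP-1 subunit that can pair with itself, showed another pattern. It was at 146, 195 and 113 TPM in the Cd38+/+ libraries, at 131, 65.6 and 123 TPM in the Cd38+/- libraries and at 97.8 to 195 TPM (median 126) in the Cd38-/- libraries. The 3 genotypes overlapped. The difference from Cd38+/+ was -0.2 in Cd38-/- (SE 0.22, interval -0.67 to 0.27, q = 0.337) and -0.53 in Cd38+/- (SE 0.3, interval -1.21 to 0.15, q = 0.287). The ratio of Junb to Jun within a library, chosen after the values were seen and given with no test, was 0.474 to 1.03 in Cd38+/+, 0.418 to 0.502 in Cd38+/- and 0.268 to 0.469 in Cd38-/- libraries.

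Fos, which forms AP-1 only with a partner such as Jun or Junb, was at 73.2, 103 and 46.9 TPM in the Cd38+/+ libraries, at 74.5, 34.8 and 91.2 TPM in the Cd38+/- libraries and at 31.8 to 86.2 TPM (median 56.3) in the Cd38-/- libraries. High and low libraries of Fos occurred in every genotype. The difference from Cd38+/+ was -0.34 in Cd38-/- (SE 0.32, interval -1.03 to 0.36, q = 0.311) and -0.19 in Cd38+/- (SE 0.4, interval -1.09 to 0.71, q = 0.533). The log2 value of -1.03 estimated for Junb lies at the end of the first interval and within the second. Fosb was near the bottom of the scale, at 0.64, 0.15 and 0.41 TPM in the Cd38+/+, 1.32, 0.71 and 1.62 TPM in the Cd38+/- and 0.53 to 1.81 TPM (median 0.775) in the Cd38-/- libraries. It stayed below the filter in each genotype and was not tested.

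Egr1, a zinc finger factor induced through SRF and the MAP kinase pathway, was at 54.7, 40.4 and 22.9 TPM in the Cd38+/+ libraries, at 33.0, 12.3 and 31.1 TPM in the Cd38+/- libraries and at 13.4 to 36.4 TPM (median 19.4) in the Cd38-/- libraries. The lowest Cd38+/+ library lay within the range of both other genotypes. Egr1 differed by -0.83 in Cd38-/- (SE 0.32, interval -1.54 to -0.13), and with q = 0.0847 it did not pass. In Cd38+/- the difference was -0.64 (SE 0.45, interval -1.66 to 0.38, q = 0.338).

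Ier2 was at 121, 86.1 and 46.8 TPM in the Cd38+/+ libraries, at 54.9, 25.2 and 46.9 TPM in the Cd38+/- libraries and at 38.0 to 63.6 TPM (median 45.0) in the Cd38-/- libraries. As for Egr1, Cd38+/+ replicate 3 lay among the libraries of the other genotypes and replicates 1 and 2 lay above them. The difference was -0.74 in Cd38-/- (SE 0.27, interval -1.33 to -0.15, q = 0.0745) and -0.95 in Cd38+/- (SE 0.39, interval -1.85 to -0.06, q = 0.225). Neither passed.

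Atf3, which is induced by cellular stress and represses or activates its targets depending on its partner, was the one tested member with a higher value in both Cd38-deficient genotypes. It was at 12.2, 0 and 12.3 TPM in the Cd38+/+ libraries, at 10.1, 5.83 and 11.8 TPM in the Cd38+/- libraries and at 9.62 to 19.8 TPM (median 15) in the Cd38-/- libraries. A single Cd38+/+ library, replicate 2, was listed at 0, while the other two lay within the range of the Cd38-/- libraries. The fitted difference of 1.45 in Cd38-/- (SE 0.69, interval -0.05 to 2.94, q = 0.128) became 0.21 without that library, and that of 0.82 in Cd38+/- (SE 0.97, q = 0.45) became -0.42. Between Cd38-/- and Cd38+/-, where that library plays no part, Atf3 differed by 0.63 (SE 0.26, interval 0.06 to 1.2, q = 0.3).

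Klf6, a widely expressed factor induced by injury, had the tightest values of the members in Cd38+/+. It was at 118, 123 and 113 TPM there, at 73.2, 48.2 and 66.3 TPM in the Cd38+/- libraries and at 54.2 to 71.8 TPM (median 63.9) in the Cd38-/- libraries. All 9 libraries of the other genotypes lay below the lowest Cd38+/+ library. Its coefficient of variation was 4.49% among the Cd38+/+ libraries, against 20.6% among the Cd38+/- and 10.6% among the Cd38-/- libraries. Klf6 fell in Cd38-/- by 0.91 on the log2 scale (SE 0.13, interval -1.2 to -0.62, q = 0.00616), and q stayed between 0.00195 and 0.028 when each of the 9 libraries was left out in turn. The call was lost with library quality weights (q = 0.216) and when a 2-fold change was asked for. In Cd38+/- the difference of -0.92 (SE 0.21, interval -1.39 to -0.46) came with q = 0.176 and was not called. Cd38-/- and Cd38+/- differed by 0.01 (SE 0.14, interval -0.29 to 0.32, q = 0.712). Unlike Junb, Klf6 has a GC content of 42.4%, below the median gene, and its difference was -1.03 (q = 0.00182) after the length and GC trend was removed.

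Klf2, best known as a shear-responsive factor of endothelial cells, was at 109, 67.2 and 44.8 TPM in the Cd38+/+ libraries, at 41.3, 20.0 and 28.8 TPM in the Cd38+/- libraries and at 18.5 to 64.6 TPM (median 39.0) in the Cd38-/- libraries. The Cd38+/- libraries lay below all Cd38+/+ libraries, and the Cd38-/- libraries overlapped with them. Neither difference passed, with -1.23 in Cd38+/- (SE 0.37, interval -2.08 to -0.38, q = 0.18) and -0.92 in Cd38-/- (SE 0.37, interval -1.74 to -0.11, q = 0.0927). The summed endothelial markers were 4749, 3022 and 1534 TPM in the Cd38+/+ libraries, in the same order as Klf2, 1288 to 2208 TPM in the Cd38+/- and 1471 to 3420 TPM in the Cd38-/- libraries. In Cd38+/- the endothelial sum (2208, 1288 and 1709 TPM) was in the same order as Klf2. The astrocyte (21288, 23742 and 23556 TPM) and oligodendrocyte sums (3114, 11070 and 3848 TPM) were lowest in Cd38+/- replicate 1, where Klf2 was highest. In Cd38-/- the orders differed, since the endothelial sum was highest in replicate 3 and Klf2 in replicate 1. Astrocyte (20624, 18643 and 14450 TPM) and oligodendrocyte markers (7235, 4985 and 1329 TPM) had the same order as Klf2 in the Cd38+/+ libraries. Of the 18 endothelial markers, 11 were below 0 in Cd38-/- and 15 in Cd38+/-, with medians of -0.11 and -0.5 and none called (2 and 3 had an unadjusted p under 0.05, all lower). Of all genes tested, 35.7% and 35.6% were below 0, with medians of 0.15 and 0.18. An unadjusted p under 0.05 with a lower value was reached by 5.99% and 3.99% of all genes. The part of endothelial RNA in the values of Klf2 was not tested. In bulk samples, fewer cells of a type and less RNA per cell cannot be told apart.

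Klf4, a factor of endothelial and other barrier cells, was low, at 11.0, 7.0 and 1.02 TPM in the Cd38+/+ libraries, 5.46, 3.79 and 3.25 TPM in the Cd38+/- and 2.71 to 6.96 TPM (median 4.54) in the Cd38-/- libraries. The wild-type libraries held both the highest and the lowest value of all 12. Klf4 passed the filter only through its Cd38+/+ mean. It differed by -0.12 in Cd38-/- (SE 0.54, interval -1.29 to 1.05, q = 0.52) and -0.19 in Cd38+/- (SE 0.75, q = 0.584), and it was not tested between Cd38-/- and Cd38+/-.

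**Figure D2:**
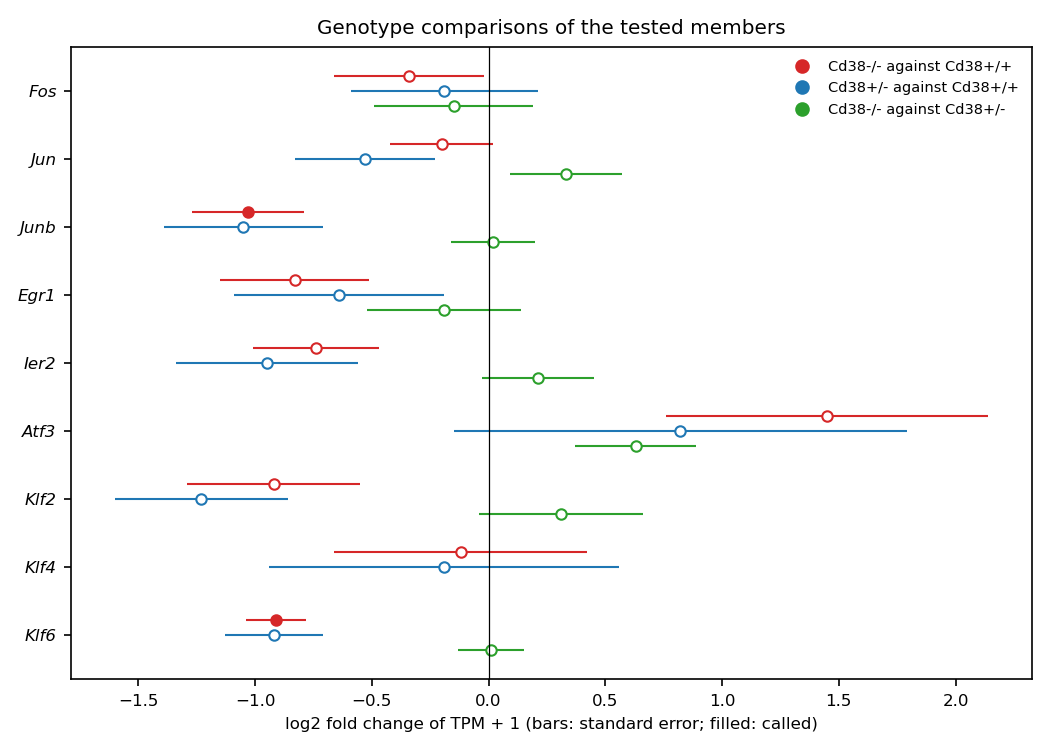
Difference in log2(TPM + 1) of the 9 tested members in the 3 genotype comparisons (points, with the standard error as bars; filled points were called). Junb and Klf6 are the filled points, at -1.03 and -0.91, and their values for Cd38-/- against Cd38+/- lie at 0.02 and 0.01.

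Read against all genes, 2 members were called lower in Cd38-/- and none higher, where 1.86% of the 11722 genes tested were called lower (218) and 6.42% higher (752). Median-ratio scaling changed this split to 388 lower and 562 higher, and both members stayed called. An unadjusted p under 0.05 with a lower value was reached by 5 members (Junb, Klf6, Ier2, Egr1 and Klf2) in Cd38-/-, against 5.99% of all genes. In Cd38+/- no gene of 11763 was called in either direction (0.0%), and 4 members (Klf6, Klf2, Junb and Ier2) had an unadjusted p under 0.05 with a lower value, against 3.99% of all genes (9.5% had a higher one). Of the 8 members with a mean above 5 TPM in each genotype, 7 were below 0 in Cd38-/- and 7 in Cd38+/-, against 35.7% and 35.6% of all genes. Their median was -0.785 and -0.78, beside 0.15 and 0.18 for all genes tested. The members were chosen with earlier results of these data known. The authors name Junb, Klf2 and Klf6 as differentially expressed against Cd38+/+ in both Cd38+/- and Cd38-/-. The counts and medians of the members are therefore descriptions and not independent results. Here Klf2 passed in neither comparison, and Junb and Klf6 passed in Cd38-/- alone. With all 12 libraries in one fit, Junb and Klf6 passed in Cd38+/- too, when 1464 of all genes did. The sample labels name DESeq2 1.36.0 among the authors' tools, while limma on TPM was used here. The cause of the difference in calls was not tested. Both comparisons with Cd38+/+ use the same 3 Cd38+/+ libraries, so they do not stand apart from each other.

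Between Cd38-/- and Cd38+/-, no member was called (0.0173% of 11563 genes were called lower and 0.0173% higher). Only Atf3 reached an unadjusted p under 0.05 (0.034, higher), as did 6.24% of all genes with a higher and 5.0% with a lower value. No member had libraries that did not overlap, against 2.88% of genes lying lower and 2.85% higher. Of the same 8 members, 2 were below 0 (Fos and Egr1), against 54.6% of all genes, and the median was 0.115 beside -0.02.

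The members also varied together among mice of 1 genotype. Cd38+/+ replicate 1 held the highest Cd38+/+ value of 6 of the 10 members and replicate 3 the lowest of 8. Cd38+/- replicate 1 was highest for 7 and replicate 2 lowest for 9. Cd38-/- replicate 1 was highest for 8 and replicate 6 lowest for 5. The summed level of the 10 genes ran from 464 to 796 TPM over the Cd38+/+, from 249 to 481 over the Cd38+/- and from 330.0 to 590.0 over the Cd38-/- libraries. These spans within a genotype overlap between genotypes.

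**Figure D3:**
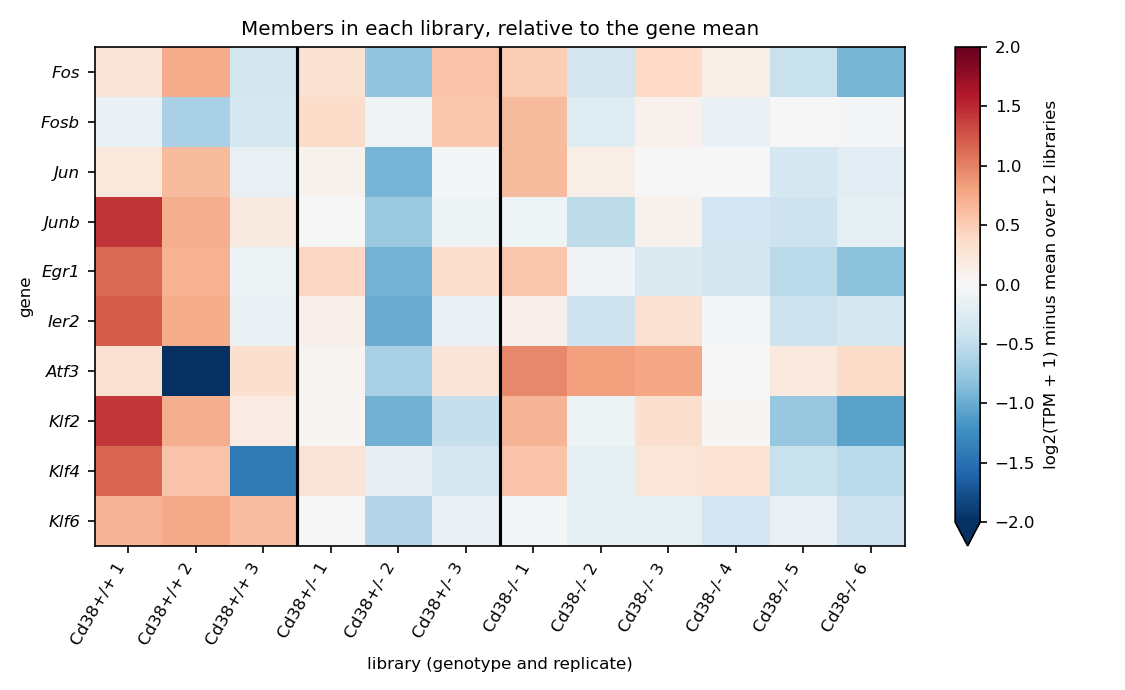
Heat map of log2(TPM + 1) for each member (rows) in each of the 12 libraries (columns), relative to the mean of the gene over all libraries (red, higher; blue, lower; Atf3 in Cd38+/+ replicate 2, listed at 0, lies beyond the scale). Cd38+/+ replicate 1 is red in most rows and Cd38+/- replicate 2 is blue in most.

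With the genotype means subtracted, Egr1 followed the mean of the other members most closely over the 12 libraries (Pearson r = 0.95), then Ier2 (0.9), Klf2 (0.89), Fos (0.81), Junb (0.79), Jun (0.78), Klf6 (0.7) and Klf4 (0.68), while Atf3 did not follow it (0.04). Fosb, below the filter, was left out. Over all 11817 genes above the filter in a genotype, those most like the mean of the 9 members were Fgl2 (r = 0.91), Zfp36 (0.9), Nfkbia (0.9), Kitl (0.89) and Tm6sf1 (0.89) over the 12 libraries. With genotype means subtracted they were Fgl2 (0.95), Nes (0.94), Nfkbia (0.93), Kitl (0.92) and Zfp36 (0.91). Zfp36 encodes a protein that destabilizes mRNAs with AU-rich elements, and Nfkbia the inhibitor of NF-κB. The libraries share their preparation and each value is a share of its library, so these correlations are descriptions.

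**Figure D4:**
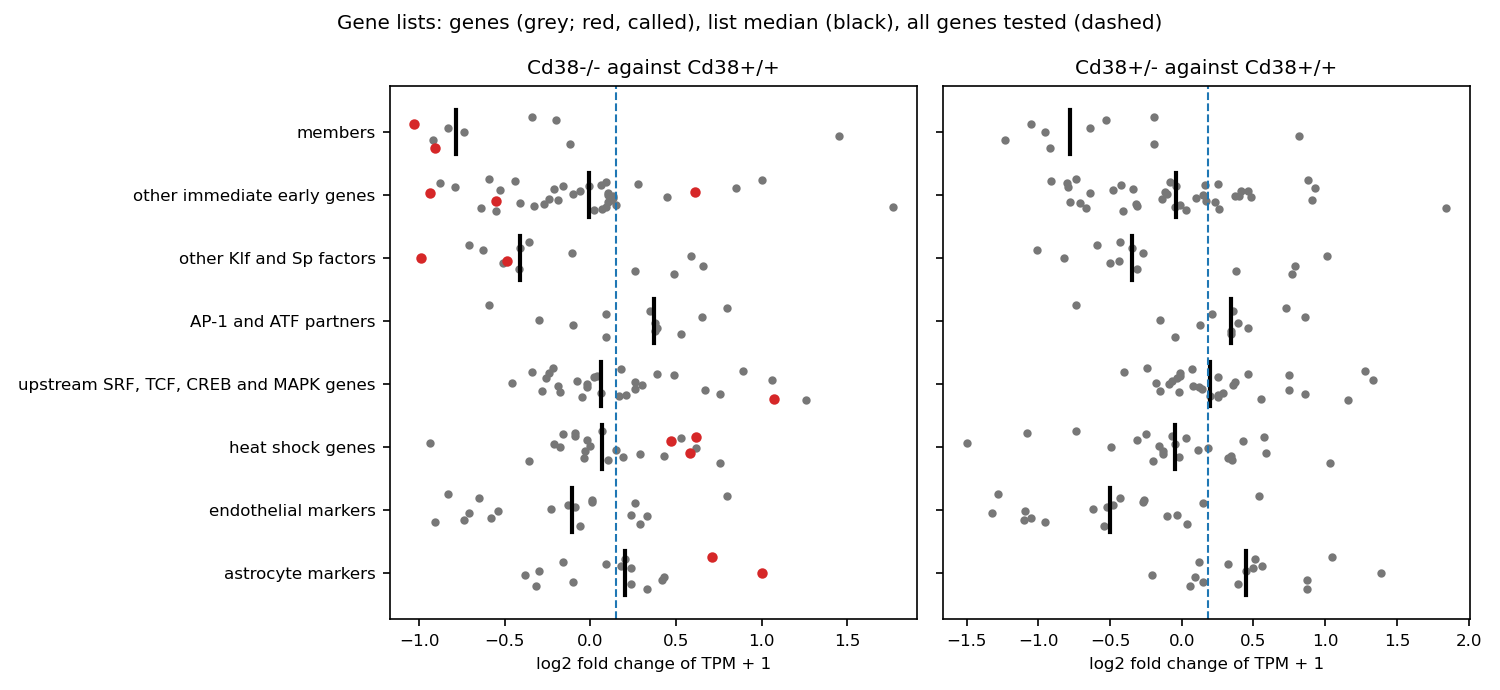
Difference in log2(TPM + 1) of each tested gene (points; red, called) of the members and 7 further lists in Cd38-/- (left) and Cd38+/- (right) against Cd38+/+, with the list median (black bar, for the members over the 8 with a mean above 5 TPM in each genotype) and the median of all genes tested (dashed, 0.15 and 0.18). The bar of the members lies at -0.785 and -0.78.

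Other immediate early genes did not move as a block. Of 54 listed, 37 were tested in Cd38-/- against Cd38+/+, where 2 were called lower, 1 higher and 19 were below 0, with a median of -0.01. An unadjusted p under 0.05 was reached by 6 with a lower value, against 5.99% of all genes, and by 2 with a higher value. Gadd45g, a growth arrest and DNA damage gene, fell by 0.94 on the log2 scale (SE 0.21, q = 0.0232), from 507, 261 and 280 TPM in the Cd38+/+ to 143 to 243 TPM in the Cd38-/- libraries. Nfkbia fell by 0.55 (SE 0.15, q = 0.0362), from 302, 262 and 206 TPM to 145 to 200 TPM. Both lay below all Cd38+/+ libraries in Cd38-/- and in Cd38+/-. Ppp1r15a, which reverses the block of translation under stress, rose by 0.61 (SE 0.17, q = 0.0401), from 45.7, 42.1 and 28.3 TPM to 51.4 to 64.0 TPM. Jund, the most abundant gene of the list and the constitutive partner in AP-1, was at -0.59 (SE 0.22, q = 0.0738) and Arf4 at 0.02 (SE 0.12, q = 0.54). Egr2, Egr3, Egr4, Fosl1, Dusp2 and Dusp5 were listed at 0 in all Cd38+/+ libraries. In Cd38+/- no gene of the 38 tested was called, and 5 had an unadjusted p under 0.05, all lower. The Cd38+/- libraries lay below all Cd38+/+ libraries for 7 of them, against 6.94% of all genes, and above for 1.

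Among the other Klf and Sp factors, 13 of 23 were tested in Cd38-/-, 2 were called lower and 9 were below 0, with a median of -0.41. Of all genes tested, 1.86% were called lower and 35.7% were below 0, with a median of 0.15. Klf13 fell by 0.99 (SE 0.24, q = 0.0274), from 106, 65.8 and 111 TPM in the Cd38+/+ to 30.48 to 60.01 TPM in the Cd38-/- libraries. Klf15, a glucocorticoid-responsive factor and the most abundant Klf gene in these cells, fell by 0.49 (SE 0.12, q = 0.0318), from 269, 314 and 267 TPM to 165 to 229 TPM. Klf9 (-0.41, SE 0.17, q = 0.095) and Klf3 (-0.36, SE 0.19, q = 0.146) did not pass. In Cd38+/- none was called, and 2 had an unadjusted p under 0.05 with a lower and 1 with a higher value. The summed level of these 23 genes was 771 to 815 TPM in Cd38+/+, 552 to 696 in Cd38+/- and 466 to 683 in Cd38-/- libraries, so the Cd38+/+ libraries lay above the rest. Sums of the 54 other immediate early genes (2313 to 2960, 1988 to 2171 and 1849 to 2389 TPM) overlapped between Cd38+/+ and Cd38-/-. The Cd38+/- sums of these genes lay below all of their Cd38+/+ sums.

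Of 21 further genes of the AP-1 and ATF/CREB families, 12 were tested in Cd38-/- and 0 were called. Of these, 2 had an unadjusted p under 0.05 with a higher and 1 with a lower value, and the median was 0.37. Besides Jund, Creb3 (0.38, SE 0.18, q = 0.133) and Atf4 (0.09, SE 0.16, q = 0.431) were the most abundant. Of the upstream SRF, TCF, CREB and MAPK genes, 29 of 34 were tested and 1 was called. Rps6ka1, which encodes the kinase RSK1, rose by 1.07 (SE 0.24, q = 0.0237), from 41.8, 32.4 and 22.0 TPM in the Cd38+/+ to 47.2 to 95.4 TPM in the Cd38-/- libraries. The kinases Map2k2 (-0.18, q = 0.334) and Map2k1 (-0.28, q = 0.11), which carry the signal towards the ternary complex factors, did not pass, and the list median was 0.06. In Cd38+/- none of either list was called, with 1 and 2 genes at an unadjusted p under 0.05.

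Heat shock genes are also known to be induced by tissue handling. All 23 were tested in Cd38-/-, with a median of 0.07 and 3 called genes, all higher. Of all genes tested, 6.42% were called higher, and the median was 0.15. Dnaja2 rose by 0.58 (SE 0.16, q = 0.0361), the endoplasmic reticulum chaperone Hsp90b1 by 0.47 (SE 0.12, q = 0.03) and the mitochondrial chaperone Hspa9 by 0.62 (SE 0.19, q = 0.048). The abundant cytosolic chaperones Hspa8 (-0.16, q = 0.359), Hsp90aa1 (0.53, q = 0.128) and Hsp90ab1 (-0.02, q = 0.55) did not pass. Hspb1, a small heat shock protein gene named after its values were seen, was at 291, 416 and 164 TPM in the Cd38+/+, 108, 85.5 and 92.8 TPM in the Cd38+/- and 76.3 to 220.5 TPM (median 165) in the Cd38-/- libraries. It was the list's only gene with an unadjusted p under 0.05 and a lower value in Cd38-/- (-0.94, SE 0.34, q = 0.0741), and in Cd38+/-, where its libraries lay below all Cd38+/+ libraries, the difference was -1.5 (SE 0.31, q = 0.176). The summed level of the list was 6320 to 6847 TPM in Cd38+/+ and 5235 to 6504 TPM in Cd38+/- libraries. In Cd38-/- it reached 9123 and 8782 TPM in replicates 1 and 2 and lay between 5268 and 6658 TPM in the other 4. Cd38-/- replicate 1 was also the library with the highest level of 8 members in that genotype, and replicate 2 was highest for none. In Cd38+/- no heat shock gene was called (3 had an unadjusted p under 0.05 with a higher and 2 with a lower value). The part of the dissociation in either list was not tested.

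Of the cell type markers, 8 were called in Cd38-/- against Cd38+/+, all higher, where 6.42% of all genes tested were called higher. They were the astrocyte genes Aqp4 (0.71, q = 0.02) and Gfap (1.0, q = 0.0175), the ependymal and choroid plexus genes Clic6 (1.37), Folr1 (1.14), Kcnj13 (3.44) and Ttr (6.02), the pericyte gene Higd1b (1.18) and the microglial gene P2ry12 (1.98). Ttr, Kcnj13 and P2ry12 were each listed at 0 in 2 Cd38+/+ libraries. Cd38+/+ replicate 3 held P2ry12 at 6.23 TPM, within the range of the Cd38-/- libraries (4.06 to 8.71 TPM). The summed ependymal and choroid plexus markers (Rarres2, Ccdc153 and Tmem212 highest) were 3215 to 5791 TPM in Cd38+/+ and 4040 to 7077 TPM in Cd38-/- libraries. Sums for oligodendrocytes (1329 to 7235 and 3194 to 17849 TPM), neurons (68.7 to 84.5 and 56.4 to 144 TPM, with Snap25, Stmn2 and Tubb3 highest) and mural cells and fibroblasts (758 to 865 and 574 to 1251 TPM, with Vtn, Pdgfrb and Dcn highest) overlapped as well. In Cd38+/-, none was called, and 7 of 15 astrocyte markers (Gfap, Aqp4, Fgfr3, Slc4a4, Slc1a2, Gja1 and Slc1a3) had an unadjusted p under 0.05, all higher. Of all genes tested there, 9.5% had such a p with a higher value. Cd38+/- replicate 2, lowest for 9 members, had 11070 TPM of oligodendrocyte markers, against 3114 and 3848 TPM in replicates 1 and 3. The other genotypes differed in this. Cd38-/- replicate 3, with the highest sum of these markers (17849 TPM), was lowest for 0 members and highest for 2. Cd38+/+ replicate 3, with the lowest sum (1329 TPM), was lowest for 8. The part of these cell types in the levels of the members was not tested.

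**Figure D5:**
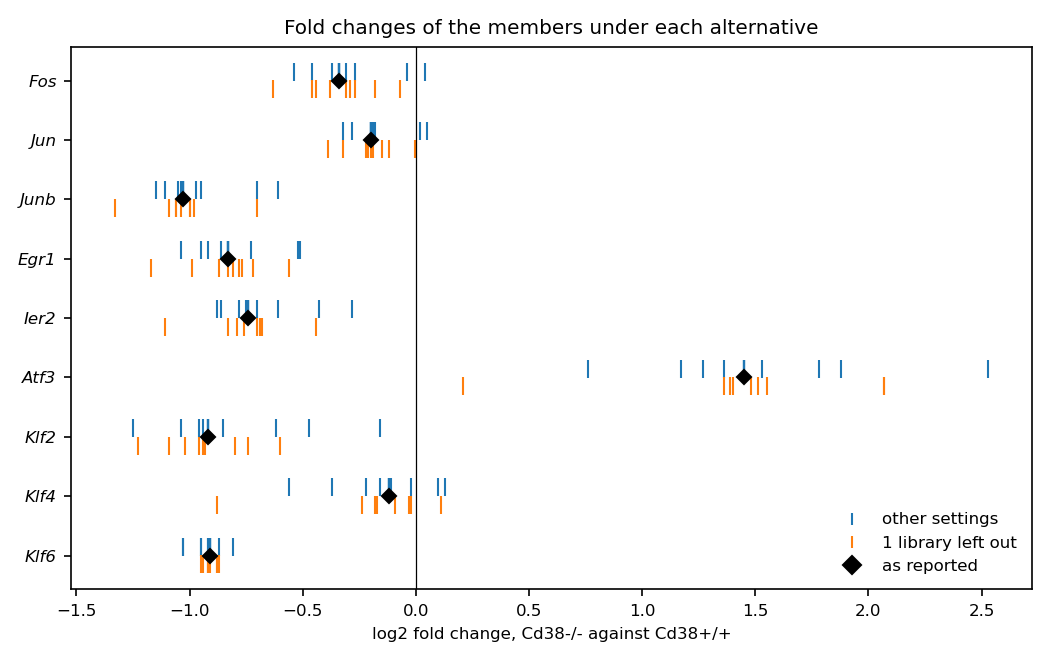
Difference in log2(TPM + 1) of each tested member between Cd38-/- and Cd38+/+ as reported (diamond), under the other settings (blue) and with 1 library left out (orange). Klf6 stays between -1.03 and -0.81 and Junb between -1.33 and -0.61, while Atf3 ranges from 0.21 to 2.53.

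The wild-type library with the lowest level of most members changed how many were called. Without Cd38+/+ replicate 3, 6 members passed in Cd38-/-, namely Junb, Klf6, Egr1 (-1.17, q = 0.0159), Ier2 (-1.11, q = 0.00605) and Klf2 (-1.23, q = 0.0297) lower and Atf3 (2.07, q = 0.035) higher, while 3119 of all genes were then called. Without any one of Cd38-/- replicates 1, 2, 5 and 6, Klf6 alone passed, while 112, 74, 93 and 154 of all genes did. The differences of Junb and Klf6 from Cd38+/+ were below 0 under each setting tried. With library quality weights the call of Junb was lost as well (q = 0.247).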

How the data were processed

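RNA of ACSA-2-selected astrocytes was sequenced in 12 libraries (SMART-Seq v4, paired-end). The authors trimmed reads with Trim Galore 0.6.4, mapped them to mm10 with STAR 2.7.1a and estimated expression with RSEM 1.2.28. The deposited values are TPM per gene and library, at 2 decimals, without counts, so sequencing depth is unknown and a value of 0 sets no upper limit. The annotation is not given in the sources used here. The labels name polyA RNA and the design text rRNA depletion.

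Groups came from the sample labels. Each comparison was fitted in limma 3.58.1 (R 4.3.3) on log2(TPM + 1) with a trended prior, on the libraries of the 2 genotypes alone, leaving out genes that averaged 5 TPM or less in both. Such differences understate the change of low genes. Storey q values were taken over all genes tested, and a call needed a q below 0.05 with a change of 1.2-fold or more. The fit was also run on simulated data in which genes varied independently, unlike these libraries, so that run does not bear on the q values here. P-values measure the spread between libraries, which the design text counts as 1 per mouse. Positions came from GENCODE vM21. The members and gene lists were chosen with earlier results of these data known. Named are the members, Cd38, every called gene of each list (at most 6) with its 3 most abundant genes, and the 5 genes most like the members, with and without genotype means. Results for 2 genes that this rule names are not reported here.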

Additional observations from a re-analysis of the deposited data

Results flagged for a closer look

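Each of the 10 members was examined in the 6 Cd38-/- libraries for a highest or lowest value far from the rest. One was found. Fosb was at 1.81 TPM in Cd38-/- replicate 1. On the scale of log2(TPM + 1), its gap to the next library took up 0.64 of the range of the group, above the critical value of Dixon's test for 6 libraries. Chance alone gives such a gap in about 1 in 20 groups. The other Cd38-/- libraries held Fosb at 0.53 to 0.91 TPM, below the level at which genes were tested. The same library held the highest Cd38-/- value of 8 of the 10 members.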

How the results depend on the processing

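Each result was recomputed with other pseudocounts, filters, scalings, q values, priors, weights, fits and with each library left out. Of 567 values for a member under an alternative, 516 kept their direction and their side of the threshold. Most of these belong to results that were not called as reported. Against Cd38+/+ in Cd38-/-, Junb lost its call under 4 of 14 settings and in 4 of 9 fits with 1 library left out. Klf6 lost its call under 4 of 14 settings and in 0 of 9 such fits. Between Cd38-/- and Cd38+/+, 2 members were called as reported. The count was 0 with library quality weights (1 gene called among all). It was 0 with the replicate block and 0 with the block after the length and GC trend was removed (2 genes among all in each). It was 1 (Klf6) with that trend removed (1023 genes among all) and 1 (Junb) when a 2-fold change was asked for (482 genes). Leaving out 1 library gave 1 to 6. Between Cd38+/- and Cd38+/+, where 0 were called, the count was 1 (Klf6) with no filter on low values, when 663 of all genes were called. It was 2 (Junb and Klf6) with all 12 libraries in one fit, when 1464 of all genes were called. Between Cd38-/- and Cd38+/- it was 2 (Egr1 and Fos) with library quality weights, under which 3120 of all genes were called. Leaving out 1 library gave 0 in both. The weights did not fully converge in 2 fits. The cause of these shifts was not tested.

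Libraries with the same replicate number showed no steady likeness, although this cannot tell whether they were processed together. Same-numbered libraries of Cd38+/+ and Cd38-/- had correlations of their deviations from the genotype means of -0.0924, -0.0393 and -0.0625. Those of Cd38+/+ and Cd38+/- had -0.00381, 0.0414 and 0.0447, and those of Cd38+/- and Cd38-/- 0.454, -0.307 and -0.00679. With the numbers as a block, Cd38-/- replicates 4 to 6 have no partner and add nothing to the difference, and 2 of all genes were called.

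Signs changed for members that were not called. Against Cd38+/+, Cd38-/- values became 0.02 for Jun and 0.1 for Klf4 with the block, and 0.04 for Fos, 0.05 for Jun and 0.13 for Klf4 with the block after the length and GC trend was removed. In Cd38+/-, Fos became 0.33 with quality weights. Between Cd38-/- and Cd38+/-, quality weights gave -0.01 for Jun, -0.16 for Junb, -0.08 for Ier2 and -0.13 for Klf6, the block 0.15 for Fos and 0.13 for Egr1, and the block after trend removal 0.1 and 0.26. Leaving out 1 library, Klf4 ranged from -0.88 to 0.11 in Cd38-/- and from -0.94 to 0.05 in Cd38+/-, Fos from -0.48 to 0.22 and Atf3 from -0.42 to 1.45 in Cd38+/-. Between Cd38-/- and Cd38+/- the ranges were -0.55 to 0.13 for Fos, -0.21 to 0.17 for Junb, -0.63 to 0.05 for Egr1, -0.12 to 0.43 for Ier2 and -0.16 to 0.13 for Klf6.

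Median-ratio scaling moved the median of all genes in Cd38-/- from 0.15 to 0.04 and quantile normalization to 0.05, and the split of higher to lower calls from 752 to 218 to 562 to 388 and 577 to 384. Junb and Klf6 were called under both. Of 330 counts of called genes in the other 5 lists, 250 stayed within 1.5 times the reported one. Depth is unknown, so members near 0, such as Fosb, could not be judged.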
